A study of Homo sapiens with 5 samples.

Results

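The STEAP genes encode transmembrane proteins, first known as surface antigens of prostate epithelium, and 3 of them lie on the long arm of human chromosome 7: STEAP1, STEAP2 and STEAP4. Their histone marks were read from peak lists of VCaP cells, an established androgen-responsive human prostate cancer line, grown in serum-containing medium with no treatment named in the labels. Peaks were taken where they overlapped chr7:89700000-89950000, which holds STEAP1 and STEAP2, or chr7:87850000-88000000, which holds STEAP4 (build hg19). Of 364358 peaks in all lists, 138 did so, 85 around STEAP1 and STEAP2 and 53 around STEAP4.

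Chromatin immunoprecipitation with sequencing (ChIP-seq) had been run with an antibody to acetylated lysine 27 of histone H3 (H3K27ac, 2 libraries), with one to monomethylated lysine 4 (H3K4me1, 2 libraries), and on 1 input library of unenriched chromatin, which is not analysed here. H3K27ac replicates 1 and 2 gave 30 and 28 of the 138 peaks, and H3K4me1 replicates 1 and 2 gave 36 and 44. The lists hold positions only, so a peak's height, and the depth of each library, are unknown. The cell line was not checked against marker genes, whose hg19 positions are not analysed here. Nothing in the labels says that the replicates came from separate cultures, and p-values then measure the spread between these libraries, which may be technical.

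STEAP2 and STEAP4 are metalloreductases, which pass electrons from NADPH across the membrane through a heme to reduce iron and copper outside the cytosol. STEAP1 shares the membrane part with its heme but lacks the NADPH-binding domain of its relatives. STEAP1 and STEAP2 are abundant in prostate epithelium and prostate cancer, and STEAP4 is known from fat tissue and inflammation as well as from androgen-treated prostate cells. H3K27ac is found at active promoters and active enhancers, whereas H3K4me1 marks enhancers in general and the stretches beside an active start site more than the site itself.

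STEAP1 and STEAP2 lie on the plus strand, STEAP1 from 89.784 to 89.794 Mb and STEAP2 from 89.841 to 89.867 Mb. STEAP4 lies on the minus strand from 87.906 to 87.936 Mb, so its 5′ end is at the higher coordinate. These hg19 bounds are known to the nearest 1 kb. Distances from a 5′ end carry that uncertainty.

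The bases before the annotated starts of these genes were compared in RefSeq promoters of build GRCh38.p14. Their positions cannot be set against the hg19 positions of the peaks, so which of these bases lie under a peak is not given. The 250 bases before the STEAP1 start (GRCh38 chr7:90154219-90154468, plus strand) are shown with those before the start of STEAP1B (GRCh38 chr7:22500189-22500438, minus strand), a related gene elsewhere on chromosome 7, because they are close copies. Capitals in the STEAP1B line mark the bases that differ from STEAP1.
STEAP1: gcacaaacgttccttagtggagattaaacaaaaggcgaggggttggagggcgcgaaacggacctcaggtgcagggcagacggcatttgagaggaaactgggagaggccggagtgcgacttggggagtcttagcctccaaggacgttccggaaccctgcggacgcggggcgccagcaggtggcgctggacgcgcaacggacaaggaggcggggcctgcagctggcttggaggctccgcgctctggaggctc
STEAP1B: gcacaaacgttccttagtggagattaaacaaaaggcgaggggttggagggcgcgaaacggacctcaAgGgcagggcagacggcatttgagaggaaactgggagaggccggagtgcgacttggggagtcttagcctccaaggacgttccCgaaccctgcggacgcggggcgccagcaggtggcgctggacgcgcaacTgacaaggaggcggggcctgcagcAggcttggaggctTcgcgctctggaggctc
Both were alike at 244 of 250 positions (97.6%) without a gap. Short reads from these bases may therefore match both genes. How reads with several matches were treated is not given in the sources used here, and the part of STEAP1B in the STEAP1 peaks was not tested.

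The 250 bases before both listed STEAP2 starts and the STEAP4 start are shown because the STEAP2 starts differ strongly in base composition. The first STEAP2 start (GRCh38 chr7:90211490-90211739) and the second (GRCh38 chr7:90213570-90213819), 2080 bases further on, are on the plus strand. The STEAP4 sequence (GRCh38 chr7:88306895-88307144) is on the minus strand. Capitals mark every match, on either strand, to any of 5 motifs. The TATA box was searched as TATAAA, the GC box as GGGCGG and the CCAAT box by the letters of its name. The androgen receptor half-site was searched as AGAACA and the FOXA core as TGTTTAC.
STEAP2 first start: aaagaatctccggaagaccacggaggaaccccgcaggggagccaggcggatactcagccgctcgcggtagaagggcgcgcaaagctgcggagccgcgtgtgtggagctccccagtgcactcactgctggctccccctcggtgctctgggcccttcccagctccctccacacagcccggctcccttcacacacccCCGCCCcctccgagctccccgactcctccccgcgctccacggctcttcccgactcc
STEAP2 second start: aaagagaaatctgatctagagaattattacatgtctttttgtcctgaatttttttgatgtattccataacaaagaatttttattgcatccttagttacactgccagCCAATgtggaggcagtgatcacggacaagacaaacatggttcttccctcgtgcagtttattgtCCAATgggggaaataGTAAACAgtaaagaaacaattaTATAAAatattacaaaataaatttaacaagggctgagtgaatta
STEAP4: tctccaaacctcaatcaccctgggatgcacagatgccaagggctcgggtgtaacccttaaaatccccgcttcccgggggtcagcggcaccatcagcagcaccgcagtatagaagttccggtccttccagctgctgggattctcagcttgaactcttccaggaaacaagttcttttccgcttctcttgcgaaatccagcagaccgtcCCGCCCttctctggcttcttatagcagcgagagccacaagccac
The first STEAP2 start has 69.6% G and C and 21 CpG dinucleotides, against 32.8% and 2 before the second start. STEAP1 has 64.4% and 21 CpGs, and STEAP4 has 55.6% and 11, close to the median of 58% and 11 CpGs over 35116 promoters in the table. The first STEAP2 start and STEAP4 each hold 1 GC box, read as CCGCCC in these lines, which 42.6% of all these promoters have. The second STEAP2 start holds 1 TATA box (10.7% of promoters), 2 CCAAT boxes (32.0%) and 1 FOXA core, read as GTAAACA (2.98%), and no motif overlaps another. The STEAP1 window shows no match to any of the 5 motifs, and the androgen receptor half-site (12.4% of promoters) is found in none of the 4 windows. Such matches describe letters, not bound sites. STEAP2 also has a neighbour that starts in the opposite direction, the long noncoding RNA gene STEAP2-AS1, and the table's 300-base windows of both genes share 204 bases on opposite strands. Peaks over this start cannot be divided between STEAP2 and STEAP2-AS1.

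At STEAP1, a single broad H3K27ac peak covered the 5′ end in both libraries, and H3K4me1 was listed only further into the gene. The H3K27ac peak measured 5798 bp in replicate 1 (chr7:89782255-89788052) and 5422 bp in replicate 2 (chr7:89782621-89788042). It reached 1.75 and 1.38 kb upstream of the 5′ end and 4.05 and 4.04 kb downstream. By width it stood above 98.9 and 99.3% of the peaks of its list. Both libraries thus gave nearly the same downstream edge, while the upstream edge differed more. Of the 4 kb centred on the 5′ end, 93.7 and 84.5% lay in H3K27ac peaks, against 0 and 2.18% in H3K4me1 peaks of replicates 1 and 2.

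H3K4me1 began at the downstream edge of that H3K27ac block. The first H3K4me1 peak found in both libraries measured 1068 bp in replicate 1 (chr7:89787795-89788862) and 1216 bp in replicate 2 (chr7:89787697-89788912). It overlapped the end of the broad H3K27ac peak and ran on past it. Each H3K27ac library had a small extra peak there, 251 bp in replicate 1 (chr7:89788714-89788964) and 188 bp in replicate 2 (chr7:89788415-89788602), and these did not overlap one another. H3K4me1 replicate 2 alone had a peak inside the H3K27ac block (chr7:89785914-89786934, 1021 bp), which began 1.91 kb downstream of the 5′ end. A last H3K4me1 region inside STEAP1 (394 bp in replicate 1, chr7:89790406-89790799, and 860 bp in replicate 2, chr7:89790492-89791351) touched no H3K27ac. On the upstream side of STEAP1 the nearest H3K4me1 peak was 69.2 kb away in replicate 1 and 69.1 kb in replicate 2. H3K4me1 around the STEAP1 start was therefore listed on the downstream side, in both libraries.

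**Figure D1:**
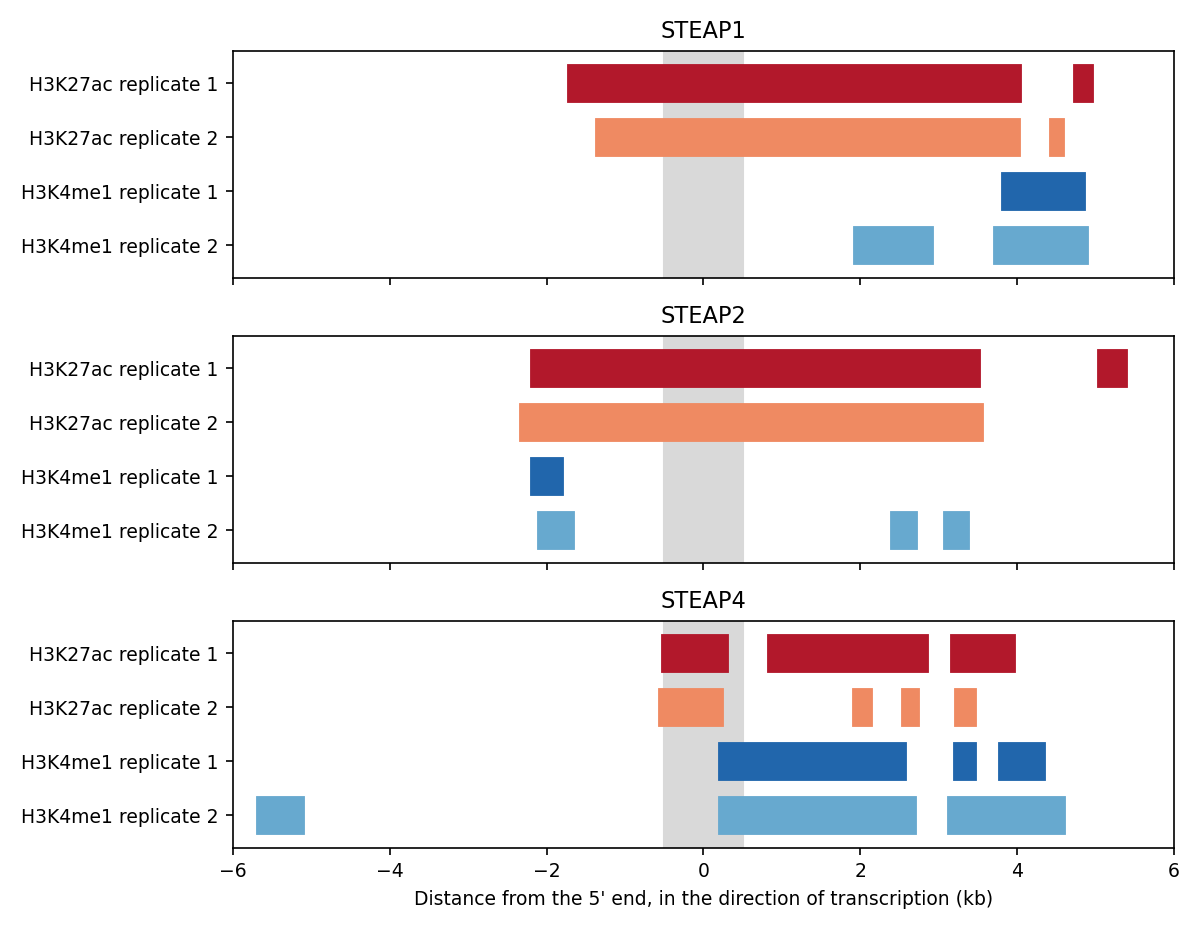
Peaks within 6 kb of the 5′ ends of STEAP1, STEAP2 and STEAP4, by library, with distance in kb in the direction of transcription; each bar is a listed peak and the grey band spans 500 bp either side of the 5′ end. Broad H3K27ac peaks cover the STEAP1 and STEAP2 ends with no H3K4me1 in the band, whereas at STEAP4 a narrow H3K27ac peak meets an H3K4me1 peak that begins 0.185 and 0.188 kb downstream. The 5′ ends are known only to the nearest 1 kb.

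At STEAP2, H3K27ac covered the whole of the 4 kb around the 5′ end and most of the gene behind it. The peak over the 5′ end measured 5741 bp in replicate 1 (chr7:89838783-89844523) and 5923 bp in replicate 2 (chr7:89838641-89844563), wider than 98.9 and 99.5% of the peaks of its list. It reached 2.22 and 2.36 kb upstream and 3.52 and 3.56 kb downstream. Its edges thus lay at nearly the same places in both libraries. H3K4me1 lay at the upstream edge in both libraries, as peaks of 420 bp (chr7:89838788-89839207, replicate 1) and 469 bp (chr7:89838875-89839343, replicate 2). Of the 4 kb around the 5′ end, 100 and 100% lay in H3K27ac peaks, against 5.18 and 8.58% in H3K4me1 peaks. On the downstream edge, replicate 2 alone listed H3K4me1, in peaks of 354 bp (chr7:89843376-89843729) and 327 bp (chr7:89844057-89844383). In replicate 1 the next H3K4me1 peak inside the gene came 11.2 kb after the 5′ end.

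The widest H3K27ac region of either window lay inside STEAP2, behind a gap after the peak at its start, in which replicate 1 alone listed a peak of 381 bp (chr7:89846022-89846402). In replicate 1 it was 1 peak of 11776 bp (chr7:89850416-89862191), which ranked 47th by width among 54763 peaks. Replicate 2 listed the same stretch as 3 peaks, of 641 bp (chr7:89851320-89851960), 698 bp (chr7:89852301-89852998) and 8947 bp (chr7:89853266-89862212). The last of these ranked 84th among 64845 peaks. The merged region (chr7:89850416-89862212) is 11797 bp long, with 11776 and 10286 bp of it in peaks of replicates 1 and 2.

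Inside this block H3K4me1 was broken into several shorter peaks. The regions found in both H3K4me1 libraries were chr7:89853364-89855110 (1747 bp), chr7:89855383-89856688 (1306 bp) and chr7:89857138-89859745 (2608 bp), and every base of them lay in H3K27ac regions found in both libraries. The first of them held peaks of 730 bp (chr7:89853364-89854093) and 353 bp (chr7:89854605-89854957) in replicate 1 and 1631 bp (chr7:89853480-89855110) in replicate 2. The second held 593 bp (chr7:89856021-89856613) in replicate 1 and 1306 bp in replicate 2. Together with peaks of a single library, H3K4me1 replicate 1 covered 33.5% of the block and replicate 2 covered 52.1%. Further peaks inside the block came from 1 library each: 196 bp from replicate 1 (chr7:89852185-89852380), and 288 bp (chr7:89852399-89852686), 380 bp (chr7:89860944-89861323) and 313 bp (chr7:89861698-89862010) from replicate 2. The widest H3K4me1 peak of either STEAP1 or STEAP2 was the 2228 bp peak of replicate 2 (chr7:89857138-89859365), wider than 94.3% of its list. Replicate 1 split the same stretch into peaks of 937 bp (chr7:89857381-89858317) and 1142 bp (chr7:89858604-89859745).

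From the block to the 3′ end of STEAP2, H3K27ac went on as short peaks that recurred less evenly. A peak of 860 bp in replicate 1 (chr7:89862572-89863431) and 822 bp in replicate 2 (chr7:89862588-89863409) was nearly the same in both. It touched a 436 bp H3K4me1 peak of replicate 2 (chr7:89862577-89863012). The next 2 shared regions were much wider in replicate 1, with 743 bp (chr7:89864732-89865474) against 177 bp (chr7:89864753-89864929) and 787 bp (chr7:89865710-89866496) against 253 bp (chr7:89866186-89866438). The second of them lay under H3K4me1 of both libraries, 527 bp in replicate 1 (chr7:89866025-89866551) and 936 bp in replicate 2 (chr7:89865596-89866531). A peak of 237 bp (chr7:89864028-89864264) was listed in H3K27ac replicate 1 alone.

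Over the 26 kb of STEAP2, 18.3 and 15.1 kb lay in H3K27ac peaks (70.4 and 58.1%), against 4.48 and 8.20 kb in H3K4me1 peaks (17.2 and 31.5%). The marks did not overlap in these values. Of the bases listed in both H3K4me1 libraries inside STEAP2 (3766 bp), 93.3% were also in both H3K27ac libraries. Read the other way, of the 15.04 kb in both H3K27ac libraries, 23.4% were in both H3K4me1 libraries and 46.3% in neither. H3K4me1 within STEAP2 was thus nested in a longer stretch of H3K27ac.

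Between STEAP1 and STEAP2, short regions with both marks stood at a few places, and 2 of them were found in both libraries of both marks. The first, at chr7:89809275-89810203, held H3K27ac peaks of 929 and 620 bp and H3K4me1 peaks of 828 and 538 bp in replicates 1 and 2. The second, at chr7:89817123-89818436, held H3K27ac peaks of 1165 and 1229 bp and H3K4me1 peaks of 490 and 917 bp. At the regions chr7:89821767-89822540 and chr7:89829723-89830001 both H3K27ac libraries had a peak, and only H3K4me1 replicate 2 did. At chr7:89810653-89811236 there was H3K27ac (267 and 510 bp) and no H3K4me1. Over the 45 kb from the 3′ end of STEAP1 to the promoter zone of STEAP2, which begins 2 kb before its 5′ end and is left out here, H3K27ac covered 3.87 and 3.28 kb, and H3K4me1 covered 1.53 and 4.64 kb, so that the H3K27ac values lay between those of the H3K4me1 libraries.

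**Figure D2:**
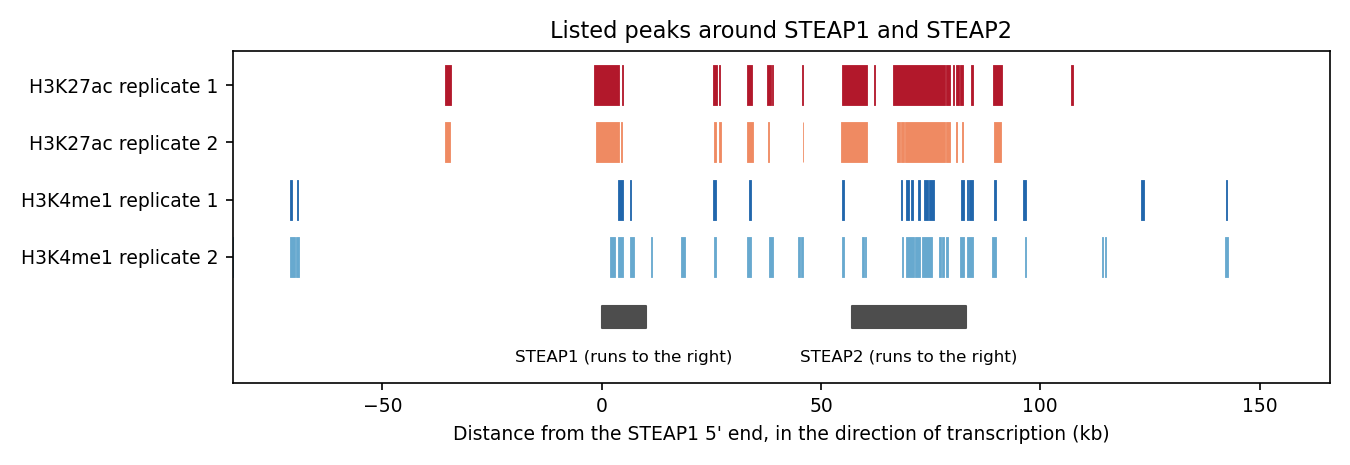
Peaks of the 4 libraries over the 250 kb around STEAP1 and STEAP2, with distance in kb from the STEAP1 5′ end; coloured bars are listed peaks and dark bars the genes. H3K27ac fills the STEAP1 start, the STEAP2 start and the 11.8 kb block inside STEAP2, and H3K4me1 appears as narrower peaks, more of them in replicate 2 (30) than in replicate 1 (20).

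At STEAP4, the H3K27ac peak over the 5′ end was narrow, and H3K4me1 followed it directly into the gene. The H3K27ac peak measured 856 bp in replicate 1 (chr7:87935692-87936547) and 828 bp in replicate 2 (chr7:87935754-87936581), wider than 48.3 and 59.2% of the peaks of its list. These are ordinary widths, unlike those over the starts of STEAP1 and STEAP2. The H3K4me1 peak next to it was by contrast one of the wider ones of its list. It measured 2398 bp in replicate 1 (chr7:87933418-87935815, wider than 98.7% of the list) and 2529 bp in replicate 2 (chr7:87933284-87935812, wider than 96.0%). It began 0.185 and 0.188 kb downstream of the 5′ end, nearly the same place in both libraries. That distance is below the 1 kb rounding of the 5′ end, so whether this peak covers the true start is unknown. The merged region (chr7:87933284-87935815, 2532 bp) was the widest of H3K4me1 in the STEAP4 window.

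Behind the STEAP4 start, the H3K27ac libraries differed. Replicate 1 had a peak of 2054 bp (chr7:87933131-87935184), where replicate 2 had 236 bp (chr7:87933247-87933482) and 251 bp (chr7:87933856-87934106). The next region had 826 bp in replicate 1 (chr7:87932030-87932855) and 280 bp in replicate 2 (chr7:87932526-87932805). Under it lay H3K4me1 peaks of 608 bp (chr7:87931639-87932246) and 289 bp (chr7:87932524-87932812) in replicate 1 and 1506 bp (chr7:87931394-87932899) in replicate 2. Of the 4 kb around the 5′ end, 51.0 and 23.4% lay in H3K27ac peaks, against 45.4 and 45.3% in H3K4me1 peaks. The H3K4me1 value was thus the steady one here, and the H3K27ac value depended on the library. Of the 900 bp of these 4 kb in both H3K27ac libraries, 81.3% were in neither H3K4me1 library. The same share was 97.4% around the STEAP1 end and 91.4% around the STEAP2 end.

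Further into STEAP4, 3 places carried both marks in all 4 libraries. Near the 3′ end, H3K27ac peaks of 818 bp (chr7:87910240-87911057) and 794 bp (chr7:87910214-87911007) met H3K4me1 peaks of 794 bp (chr7:87909986-87910779) and 841 bp (chr7:87910149-87910989). Beside them, H3K27ac peaks of 749 bp (chr7:87911371-87912119) and 569 bp (chr7:87911274-87911842) met H3K4me1 peaks of 428 bp (chr7:87911326-87911753) and 933 bp (chr7:87911499-87912431). In the middle of the gene, H3K27ac peaks of 1222 bp (chr7:87918498-87919719) and 539 bp (chr7:87918474-87919012), merged to 1246 bp (chr7:87918474-87919719), met an H3K4me1 peak of 768 bp in replicate 1 (chr7:87918348-87919115) and one of 1774 bp in replicate 2 (chr7:87918307-87920080). Replicate 1 had a further H3K4me1 peak of 342 bp (chr7:87919633-87919974) within the stretch of the 1774 bp peak. Next to it, H3K4me1 was listed in both libraries without H3K27ac, with 254 bp in replicate 1 (chr7:87920645-87920898) and 843 bp in replicate 2 (chr7:87920593-87921435).

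Over the 30 kb of STEAP4, 5.98 and 2.92 kb lay in H3K27ac peaks (19.9 and 9.72%), against 5.88 and 8.43 kb in H3K4me1 peaks (19.6 and 28.1%). The marks overlapped in these values, since H3K27ac replicate 1 lay above H3K4me1 replicate 1. Of the 2769 bp in both H3K27ac libraries inside the gene, 71.0% were in both H3K4me1 libraries and 8.67% in neither. For the 10 kb of STEAP1, 43.0 and 42.3% lay in H3K27ac peaks, against 14.6 and 31.0% in H3K4me1 peaks. Of its 4042 bp in both H3K27ac libraries, 6.14% were in both H3K4me1 libraries and 66.2% in neither. In each H3K27ac library the order by percentage of the gene covered was thus STEAP2, STEAP1, STEAP4. The percentages depend on gene length, which differs between the genes. By length covered, STEAP1 held 4.30 and 4.23 kb of H3K27ac, less than STEAP4 in replicate 1 (5.98 kb) and more in replicate 2 (2.92 kb). H3K4me1 ran from 14.6 to 19.6% over the 3 genes in replicate 1 and from 28.1 to 31.5% in replicate 2. STEAP4 was highest in replicate 1 and lowest in replicate 2.

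**Figure D3:**
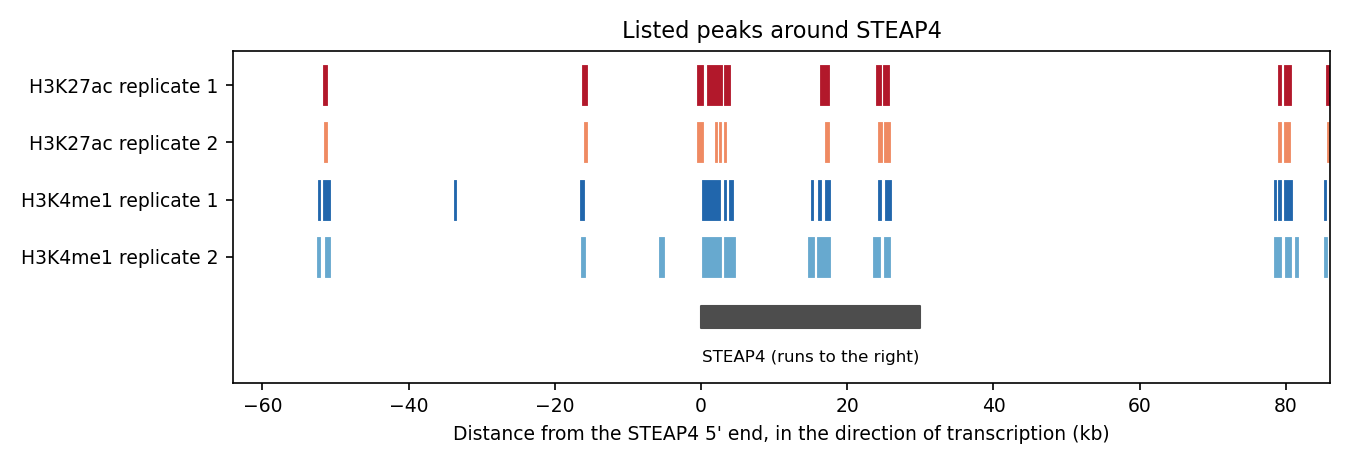
Peaks of the 4 libraries over the 150 kb around STEAP4, with distance in kb from its 5′ end in the direction of transcription; coloured bars are listed peaks and the dark bar is the gene. Clusters of both marks lie at the start, in the middle and near the 3′ end of the gene, and at the 5′ end the marks mostly adjoin. In replicate 2 H3K27ac covers less length (5.997 kb) than H3K4me1 (13.6 kb).

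**Figure D4:**
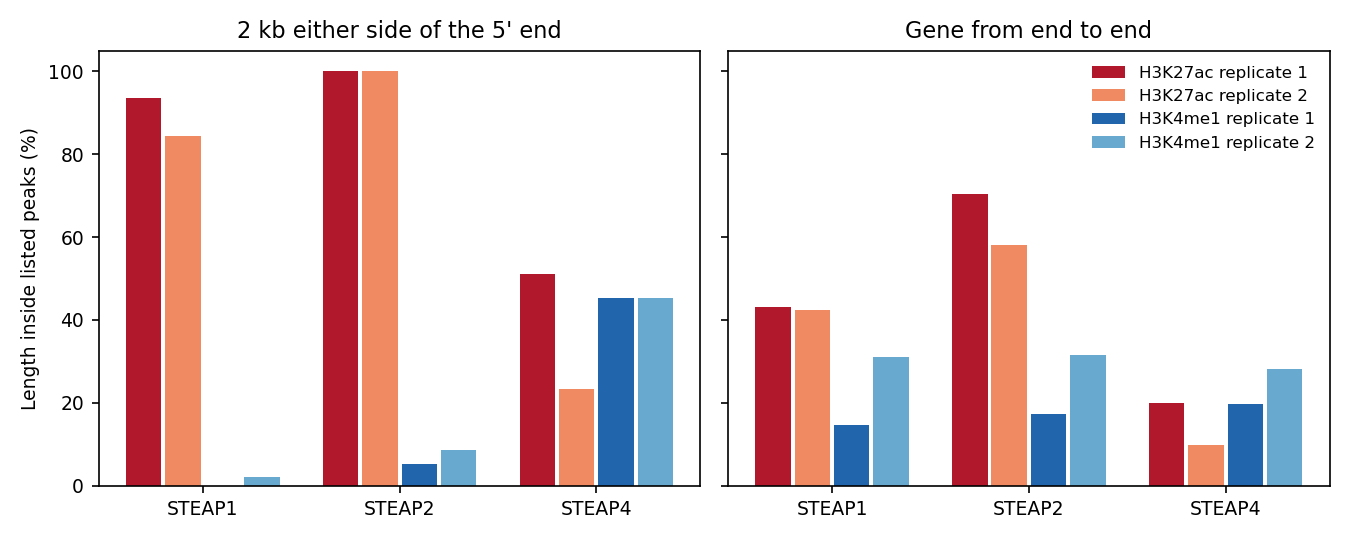
Percentage of the 4 kb around each 5′ end (left) and of each gene (right) inside listed peaks, 1 bar per library. H3K27ac exceeds 84% around the STEAP1 and STEAP2 ends, where H3K4me1 stays below 9%; around the STEAP4 end the H3K27ac bars (51.0 and 23.4%) lie on both sides of the H3K4me1 bars (45.4 and 45.3%).

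In both windows the H3K27ac libraries listed fewer peaks than the H3K4me1 libraries, but covered more length around STEAP1 and STEAP2 and less around STEAP4. Fewer H3K27ac peaks is also a trait of the full lists, which hold 54996 and 65106 H3K27ac peaks against 118551 and 125705 H3K4me1 peaks. The median 250 kb window of the genome held 4 and 5 H3K27ac peaks against 10 and 11 H3K4me1 peaks. The lower number is therefore not particular to these loci. Around STEAP1 and STEAP2, the H3K27ac libraries listed 19 and 16 peaks over 34.3 and 29.0 kb, and the H3K4me1 libraries 20 and 30 peaks over 11.4 and 22.1 kb. The mean was 31.7 ± 3.75 kb for H3K27ac and 16.8 ± 7.53 kb for H3K4me1 (SD, n = 2 each), a ratio of 1.89, and the libraries of the marks did not overlap. In peak number the means were 17.5 ± 2.12 and 25 ± 7.07, a ratio of 0.7. Around STEAP4, the H3K27ac libraries listed 11 and 12 peaks over 9.67 and 5.997 kb, and the H3K4me1 libraries 16 and 14 peaks over 9.91 and 13.6 kb. The mean length was 7.83 ± 2.59 kb for H3K27ac and 11.7 ± 2.59 kb for H3K4me1, a ratio of 0.667, and the mean number 11.5 ± 0.707 and 15 ± 1.41. Each of these 4 differences gave an exact two-sided permutation p of 0.333 (also after Benjamini-Hochberg adjustment over the 4), the smallest that 2 against 2 libraries can give. Single libraries weighed on the sizes: around STEAP1 and STEAP2 the difference in number (-7.5) was -2.5 without H3K4me1 replicate 2 and -12.5 without replicate 1, and that in length (14.9 kb) was 9.57 kb without H3K4me1 replicate 1. Around STEAP4 the difference in length (-3.91 kb) was -2.08 kb without either H3K27ac replicate 2 or H3K4me1 replicate 2, and it was -1.18 kb with equal numbers of widest peaks, where the libraries of the marks overlapped (exact two-sided permutation p = 0.667). Under that setting both differences in number turned round, to 3.5 and 3 (exact two-sided permutation p = 0.667 and 0.333). With a common minimum width and joining distance for all lists, the difference in number around STEAP1 and STEAP2 was again -7.5. The libraries of the marks then no longer lay fully apart (exact two-sided permutation p = 0.667).

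The same lengths can be given as a split between the windows. Of the length listed in both windows together, the STEAP1 and STEAP2 window held 78.0 and 82.9% in H3K27ac replicates 1 and 2, against 53.6 and 61.9% in H3K4me1 replicates 1 and 2. This split was computed after the values of each window had been seen and restates them, so it is a description with no test.

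The share of H3K27ac peaks that met the other mark lay within counting error of the whole lists in both windows. Of H3K27ac peaks in the STEAP4 window, 11 of 11 in replicate 1 and 12 of 12 in replicate 2 touched an H3K4me1 peak of either library (exact 95% intervals 71.5 to 100% and 73.5 to 100%). In the STEAP1 and STEAP2 window it was 13 of 19 (43.4 to 87.4%) and 12 of 16 (47.6 to 92.7%). Over the whole lists the share was 82.3% in replicate 1 and 80.5% in replicate 2, which lies inside the intervals of the same library in both windows. H3K4me1 peaks touched H3K27ac in 12 of 16 (replicate 1, 47.6 to 92.7%) and 10 of 14 (replicate 2, 41.9 to 91.6%) cases around STEAP4. Around STEAP1 and STEAP2 it was 13 of 20 (40.8 to 84.6%) and 19 of 30 (43.9 to 80.1%). The whole lists gave 48.4% for H3K4me1 replicate 1 and 43.7% for replicate 2. These lie inside the intervals near their lower ends, except that 43.7% lies just below the interval of replicate 2 around STEAP1 and STEAP2. Intervals cover counting error over peaks alone, and neighbouring peaks of 1 locus are not independent.

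Recurrence between replicates also varied. In the STEAP4 window, 11 of 11 H3K27ac peaks of replicate 1 and 12 of 12 of replicate 2 touched a peak of the other library, and all 11 merged regions were found in both. Around STEAP1 and STEAP2 it was 13 of 19 and 15 of 16, and 13 of 20 merged H3K27ac regions were found in both. The shares over the whole lists were 87.9% (replicate 1) and 86% (replicate 2). For H3K4me1, 15 of 16 and 12 of 14 peaks recurred around STEAP4, and 18 of 20 and 15 of 30 around STEAP1 and STEAP2, against 88.3% and 68.7% of replicates 1 and 2 over the whole lists. Around STEAP1 and STEAP2, H3K4me1 replicate 2 thus had 15 peaks without a partner and replicate 1 had 2.

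Measured by bases, the order of the windows depended on which mark was taken as the whole. With H3K27ac as the whole, the share also in both H3K4me1 libraries was smaller around STEAP1 and STEAP2 than around STEAP4. With H3K4me1 as the whole, the share also in both H3K27ac libraries was larger around STEAP1 and STEAP2, mainly through H3K27ac replicate 2. Of 28.1 kb listed in both H3K27ac libraries around STEAP1 and STEAP2, 19.4% were in both H3K4me1 libraries and 55.9% in neither. Of 5.72 kb around STEAP4, 58.0% were in both and 25.8% in neither. Over all autosomes and chromosome X the same percentages were 39.9 and 46.8%, between those of the windows. In bases listed in both H3K4me1 libraries, 59.5% around STEAP1 and STEAP2 and 37.6% around STEAP4 were in both H3K27ac libraries, against 38.8% over these chromosomes. The share in neither H3K27ac library was 30.6 and 33.6%, against 49.3%. Taken singly, H3K27ac replicate 1 held 6188 of 9188 bp around STEAP1 and STEAP2 and 5811 of 8827 bp around STEAP4. Replicate 2 held 5652 and 3368 bp of them. These are descriptions of 2 loci, with no test.

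Among windows of the same size along the genome, the STEAP1 and STEAP2 window stood out by H3K27ac length more than by H3K4me1 length. Of 10196 windows of 250 kb that held any peak, 98.8 and 98.0% had less H3K27ac in replicates 1 and 2, and 79.5 and 87.8% had less H3K4me1. The median window held 4.48 and 4.08 kb of H3K27ac and 5.15 and 8.68 kb of H3K4me1. For STEAP4, 85.9 and 75.1% of 16181 windows of 150 kb had less H3K27ac and 88.8 and 86.7% had less H3K4me1. The medians there were 2.61 and 2.36 kb of H3K27ac and 3.04 and 5.17 kb of H3K4me1. Ranked by peak number instead, the STEAP4 window stood above 95.8 and 94.2% of windows for H3K27ac and 89.9 and 84.8% for H3K4me1. The STEAP1 and STEAP2 window stood above 98.2 and 91.4% for H3K27ac and 81.9 and 96.7% for H3K4me1. By number the 2 windows were thus less apart in H3K27ac than by length. The STEAP windows were chosen around known genes and the others were laid end to end, so these places are descriptions.

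**Figure D5:**
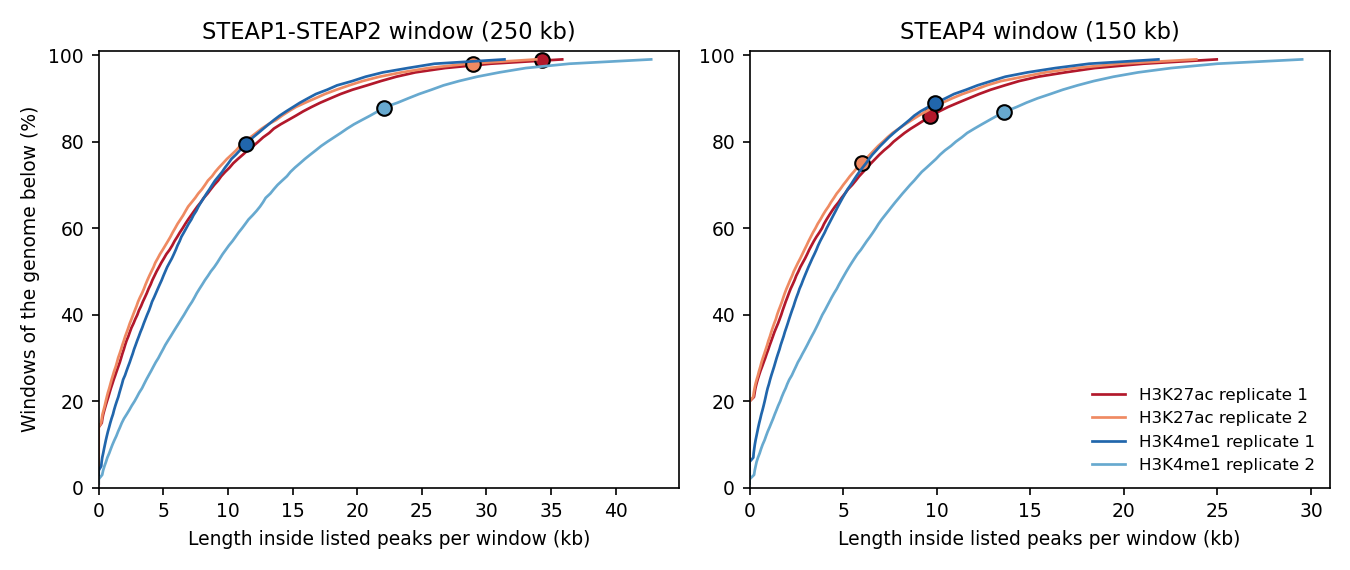
Share of genome windows (y axis, %) with less length inside peaks than the value on the x axis (kb), for windows of 250 kb (left) and 150 kb (right); lines are libraries and ringed points the STEAP windows. The H3K27ac points of the STEAP1 and STEAP2 window lie at 98.8 and 98.0%, and every other point lies between 75.1 and 88.8%.

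When H3K27ac regions found in both libraries were joined across gaps of up to 12.5 kb, STEAP2 fell into one of the larger domains. It ran from the space behind STEAP1 past the 3′ end of STEAP2 (chr7:89809275-89875191, 65.9 kb) and joined 11 regions with 25.9 kb of H3K27ac, the 45th most of 27436 domains. H3K27ac replicate 1 covered 26.4 kb of the whole span and replicate 2 covered 22.2 kb. These 2 values also count peaks listed in 1 library only, which the 25.9 kb leaves out. The STEAP1 region stayed on its own with 5.80 kb, at rank 2623. STEAP4 made up a domain of 6 regions and 6.71 kb (chr7:87910214-87936581), at rank 1931. The ranks rest on length, since heights are not in the lists.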

How the data were processed

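ChIP-seq peak lists of VCaP cells were used, 1 per immunoprecipitated library (H3K27ac and H3K4me1, 2 each). Build hg19 and the tools MACS2 2.1.0, Bowtie 1.1.2, Trimmomatic 0.33 and bcl2fastq 2.17 are listed, without roles, per the submitters' processing notes. Peak-calling settings and any control were not stated there. The authors deposited chromosome, start, end and name of each peak, with no height, in 1 list per library. Read depth is unknown. The narrowest peaks measured 221 and 172 bp in H3K27ac replicates 1 and 2, and 191 and 232 bp in H3K4me1 replicates 1 and 2, so the lists differ in the peaks they could hold.

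Positions are counted from 1. Covered length was clipped to each window. Regions are peaks of a mark merged where they shared at least 1 bp, and replicated regions hold both libraries. Promoter zones span 2 kb either side of a 5′ end. Marks were compared over libraries by exact two-sided permutation tests (scipy 1.17.1, Python 3.11.15), and intervals are exact (Clopper-Pearson). Genome-wide values used the autosomes and chromosome X. Interval code was tested on simulated data. Promoter sequences came from the RefSeq table of GRCh38.p14. All peaks over a promoter zone or gene and the 3 widest replicated regions per mark and window are named, with others chosen after their values were seen. The genes, windows and lists were chosen with earlier results of these data known.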

Additional observations from a re-analysis of the deposited data

How the results depend on the processing

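Over 19 results and 83 alternatives, 74 kept their direction or stayed within 1 SD of the replicates, and with 2 libraries per mark no exact permutation test could go below p = 0.333. Part of this count was fixed in advance. For values of 1 mark (promoter zones and places among genome windows), leaving out 1 of 2 libraries always moves the mean by less than 1 SD. For the differences in number and length and for the split of length between the windows, the libraries of the marks did not overlap in the lists as deposited. Leaving out 1 library could therefore change the size of these differences but not their direction. A replicate block likewise leaves a difference of means unchanged. With equal numbers of widest peaks the difference in peak number (H3K27ac minus H3K4me1) turned round, to 3.5 around STEAP1 and STEAP2 and 3 around STEAP4; that setting keeps the 54763 widest peaks of each list and so drops the narrowest of the longer lists. The length difference around STEAP4 was then -1.18 kb. Leaving out 1 library gave differences in number of -12.5 to -2.5 and -4.5 to -2.5 and in length of 9.57 to 20.2 kb and -5.75 to -2.08 kb in the windows of STEAP1 with STEAP2 and of STEAP4. With promoter zones of 1 kb either side the mean covered was 100% (STEAP1, H3K27ac), 0% (STEAP2, H3K4me1) and 40.7% (STEAP4, H3K4me1). With 5 kb it was 58.3% for H3K27ac at both STEAP1 and STEAP2, 16.5% for H3K4me1 at STEAP1 and 36.65% for H3K4me1 at STEAP4. These moves follow from the size of the zone.

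A replicate block cannot change a difference of means, so these stayed at -7.5 and -3.5 peaks and 14.9 and -3.91 kb. The exact permutation p was 0.5, the smallest for 2 pairs, so that 0 of 4 calls was fixed in advance. Same-numbered libraries had only a weak tendency to deviate in opposite directions (r = -0.238 over 10196 windows of 250 kb, after dividing by each library's covered length). No label says that the numbers pair them. Crossing the numbers, an alternative added after seeing the data, has the same smallest p, so its 0 of 4 calls was fixed as well. The split of listed length between windows, also computed after seeing the data, differed by 22.7 percentage points between the marks, and by 18.5 to 26.9 when 1 library was left out.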

Other observations

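The outer parts of both windows held marks away from the STEAP genes. Upstream of STEAP1, an H3K27ac region at chr7:89748241-89749559 (1319 and 1206 bp in replicates 1 and 2) touched no H3K4me1 peak of either library. Still further upstream, H3K4me1 regions at chr7:89712894-89713991 (606 and 1018 bp) and chr7:89714282-89714891 (238 and 610 bp) touched no H3K27ac. Behind STEAP2, the next protein-coding gene in order is CFAP69, and the first shared H3K27ac region there (chr7:89873300-89875191, 1892 and 1805 bp) carried H3K4me1 on its STEAP2-facing edge, as peaks of 352 bp (chr7:89873521-89873872) and 1030 bp (chr7:89872924-89873953). An H3K4me1 region just past the 3′ end of STEAP2 (chr7:89867296-89868723, 1428 bp) carried an H3K27ac peak of replicate 1 alone (chr7:89868317-89868657, 341 bp).

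On the far side of the STEAP4 3′ end, where the next protein-coding gene in order is SRI, which encodes the calcium-binding protein sorcin, the widest H3K27ac region of the STEAP4 window crossed the window's edge (chr7:87848167-87850528, 2360 and 2234 bp). Upstream of STEAP4, both marks met at chr7:87951559-87952243 (H3K27ac 592 and 428 bp, H3K4me1 578 and 526 bp) and at chr7:87987135-87987673 (H3K27ac 539 and 442 bp, H3K4me1 982 and 702 bp).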
